A study of Homo sapiens with 36 samples.

Results

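The IL-6 family of cytokines, its receptors and the nearest signalling genes were followed in A549 cells, a human lung adenocarcinoma line. The 10 genes were taken by their symbols from the 63677 Ensembl genes counted in each library. They were the ligands IL6, LIF, IL11 and CLCF1, the receptor chains IL6R, IL6ST, LIFR and OSMR, the transcription factor STAT3 and the inhibitor SOCS3, and all 10 had enough reads to be tested. Cells were cultured with IL-1β (1 ng/ml) or left untreated, and were split every few days. RNA was sequenced at days 6, 15 and 21 of IL-1β exposure and at days 6, 15 and 30 following IL-1β withdrawal, each time beside an untreated control, with 3 libraries in each of the 12 groups. Apart from IL-1β and its withdrawal, the groups carried no other agent or allele by their labels, and all came from 1 cell line in culture. The libraries of a group were labelled as biological replicates, but nothing states that they came from separately exposed cultures, so the p-values measure the spread between these libraries.

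Members of the IL-6 family are secreted proteins that bind a receptor chain of their own together with IL6ST, the shared chain also known as gp130. IL-6 uses IL6R and IL-11 uses IL11RA, each with a pair of gp130 chains, whereas LIF pairs gp130 with LIFR and oncostatin M can pair it with OSMR. The assembled receptor activates JAK kinases, which phosphorylate STAT3, and STAT3 in turn induces SOCS3, which binds gp130 and the JAK kinases and limits the signal. In epithelial cells IL6 is a well-known target of NF-κB downstream of the IL-1 receptor.

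Between 9116032 and 23570026 reads per library fell on genes. Expression is given as CPM, the counts relative to library size after scaling by the TMM method of edgeR. Each IL-1β group was compared with the untreated control cells of the same time point in 1 edgeR quasi-likelihood fit of all 36 libraries, and p-values were adjusted by Benjamini-Hochberg over the 19180 genes tested. A gene was called when its adjusted p was under 0.05 and its fold change over 2. The libraries differed in more than treatment and time. In 11 of them the mitochondrial share of counts was 11.8% to 24.6%, and in the other 25 it was 5.61% to 7.75%. Of the 11, 6 were from untreated groups and 5 from IL-1β or withdrawn groups. Replicate 2 gave 8 of the 11. The epithelial markers KRT8, KRT18 and KRT7 and the A549 markers ALDH1A1, AKR1C1 and NQO1 were high in all libraries, at 148 CPM or more, CDH1 had 27.5 to 319 CPM, and KRT19 had at most 4 counts and EPCAM at most 1.63 CPM in any library. The 6 epithelial genes summed to 4202 to 9161 CPM in untreated libraries and 2045 to 6732 CPM in IL-1β libraries, withdrawn ones included. The 3 A549 genes summed to 5907 to 8929 and 2722 to 6788 CPM in the same libraries. The part of these shifts in the responses was not tested. Of the other cell types the culture could hold, the leukocyte gene CD3E had 0 counts and PTPRC at most 3, the endothelial gene CDH5 had at most 2, and the 5 fibroblast genes summed to 4.46 CPM or less. The 6 leukocyte genes summed to 9.39 to 20.1 CPM in untreated libraries and 7.34 to 30.8 CPM in IL-1β or withdrawn libraries, mostly CD14 and ITGAM.

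IL6 and IL11 rose at all 3 time points of IL-1β exposure and OSMR rose at day 6, while the other ligands, receptor chains, STAT3 and SOCS3 were not called at any time point. Following IL-1β withdrawal, IL6 was still called at days 6, 15 and 30 and IL11 at day 6 alone. By count, 3 of the 10 genes were called at day 6, where 2.77% of all genes tested were called in either direction. The count was 2 of 10 at day 15 (background 4.24%) and 2 of 10 at day 21 (background 4.26%). Following withdrawal it was 2 of 10 at day 6 (background 1.80%), 1 of 10 at day 15 (background 0.954%) and 1 of 10 at day 30 (background 0.897%). Each of these calls was an increase, against which the background of increases alone was 1.52%, 1.94% and 2.19% at days 6, 15 and 21 and 1.08%, 0.594% and 0.433% following withdrawal. The 3 libraries of the IL-1β group all lay above the 3 controls in 7, 5 and 8 of the 10 genes during exposure, where 10.6%, 11.5% and 13.8% of all genes did so, and in 3, 3 and 7 following withdrawal, where 5.51%, 6.02% and 6.78% did. The median log2 fold change of the 10 genes was 0.60, 0.30 and 0.60 during exposure and 0.52, 0.45 and 0.59 following withdrawal, and that of all genes tested stayed between -0.02 and 0.02.

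**Figure D1:**
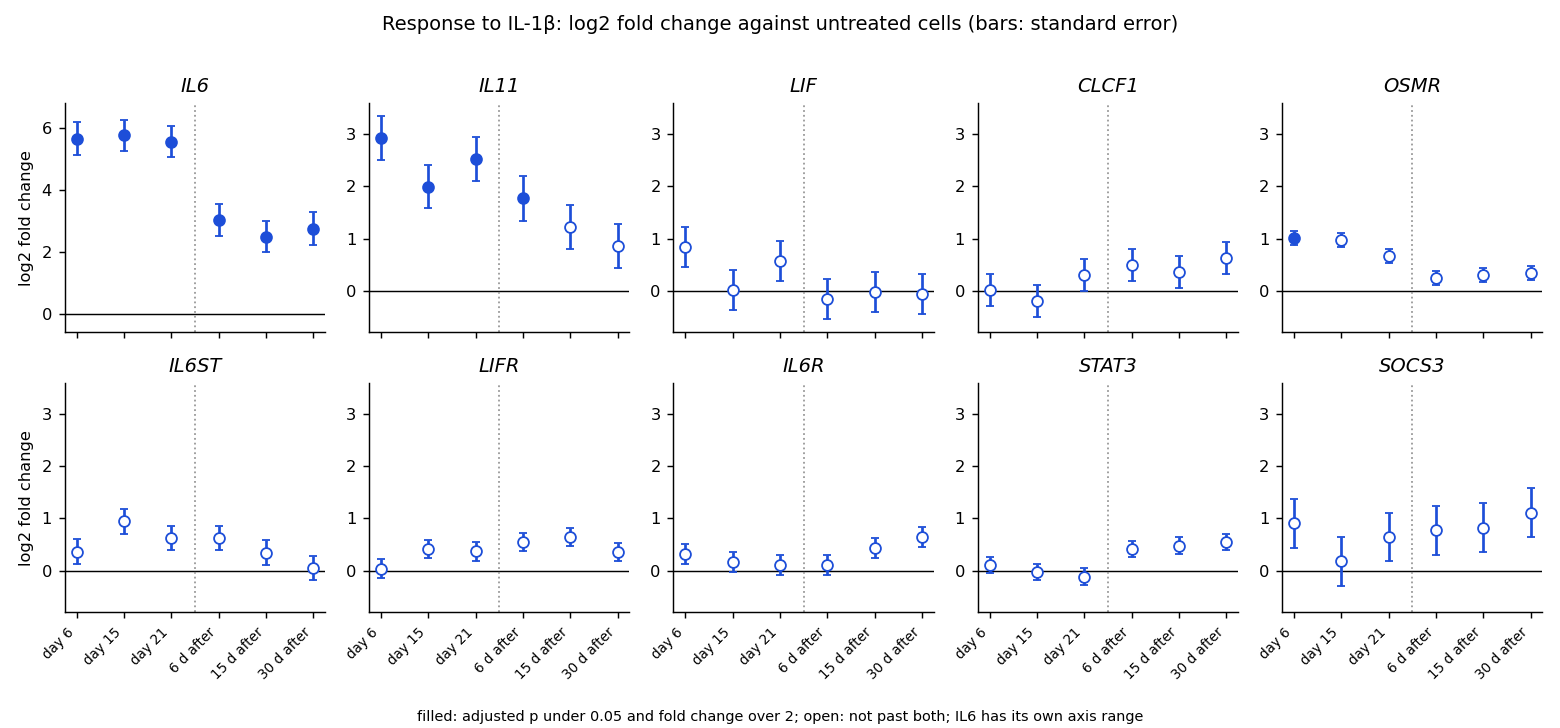
Log2 fold change of each gene in IL-1β cells against untreated control cells at the 6 time points, with standard errors as bars. Filled points had an adjusted p under 0.05 and a fold change over 2. IL6, on its own axis range, stays above 2 at every time point, IL11 goes from 2.93 at day 6 to 0.86 at day 30 after withdrawal, and OSMR lies near 1 at days 6 and 15.

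The upstream sequences of the called genes are shown because these 3 rose together at day 6. RefSeq promoter windows (GRCh38.p14) were at hand for 8 of the 10 genes, LIF and CLCF1 not among them, and the 250 bases before each annotated start were searched on both strands. The motifs were STAT (TTCNNNGAA), AP-1 (TGANTCA), C/EBP (TTGCNNAA) and a kB motif (GGGA and TTTCC with 1 base of any kind between them). IL6 lies at chr7:22726950-22727199 on the plus strand, IL11 at chr19:55370464-55370713 on the minus strand and OSMR at chr5:38845762-38846011 on the plus strand. Capitals mark the motif matches.
IL6: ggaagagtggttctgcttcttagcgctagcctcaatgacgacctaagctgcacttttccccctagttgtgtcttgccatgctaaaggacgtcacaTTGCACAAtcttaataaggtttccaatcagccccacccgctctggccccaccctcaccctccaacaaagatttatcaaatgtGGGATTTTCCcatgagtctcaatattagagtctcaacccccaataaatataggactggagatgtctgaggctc
IL11: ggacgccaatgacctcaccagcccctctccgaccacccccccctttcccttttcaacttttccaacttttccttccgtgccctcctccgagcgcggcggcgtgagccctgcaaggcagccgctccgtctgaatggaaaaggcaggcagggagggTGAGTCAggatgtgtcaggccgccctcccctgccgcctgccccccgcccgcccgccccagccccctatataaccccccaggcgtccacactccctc
OSMR: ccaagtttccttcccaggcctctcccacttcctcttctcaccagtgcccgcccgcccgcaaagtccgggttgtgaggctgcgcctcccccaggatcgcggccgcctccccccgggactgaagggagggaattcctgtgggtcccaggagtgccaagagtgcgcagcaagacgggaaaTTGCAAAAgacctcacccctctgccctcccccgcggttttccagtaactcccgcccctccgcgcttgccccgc
In IL6 the C/EBP letters run from -155 to -148 and the kB letters from -73 to -64, counted from the last base before the start as -1. The kB motif is in 0.527% and the C/EBP motif in 9.05% of the 35116 promoter windows of the table. A looser form of the kB motif, which the same letters of IL6 match, is in 5.21%. The AP-1 letters of IL11 run from -96 to -90, and this motif is in 6.57% of windows. OSMR holds C/EBP letters from -73 to -66. The STAT motif, in 6.57% of windows, was found in the window of none of these 3 genes, and of the 8 genes only LIFR held it. For SOCS3 the bases following the start of both windows were not found near the beginning of its GENCODE transcripts, so whether these windows lie at its start was not settled. A match describes these letters and does not show that a factor binds there.

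In untreated cells the family was unevenly expressed. Levels are compared between genes as CPM per kilobase of exon. At day 21, LIF stood at 22.3 ± 1.2 and IL6ST at 19.8 ± 1.4 (SD, n = 3), with overlapping libraries. OSMR followed at 16.0 and STAT3 at 13.1, each apart from its neighbours. SOCS3 at 10.9 and CLCF1 at 10.7 overlapped, as did IL11 at 6.20 and IL6R at 4.20. LIFR stood at 1.38 and IL6 was the lowest at 0.749 ± 0.29. Over all 18 untreated libraries, ordered by their medians, every pair of neighbours overlapped. In cells exposed to IL-1β for 21 days, IL11 (35.4) and IL6 (34.6) stood beside LIF (33.2) and IL6ST (30.6), and neighbouring genes in this order overlapped from IL11 down to OSMR (25.3). IL6 thus went from the last place to one it shared with the most abundant ligands, while IL6R at 4.55 and LIFR at 1.78 were then the lowest.

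**Figure D2:**
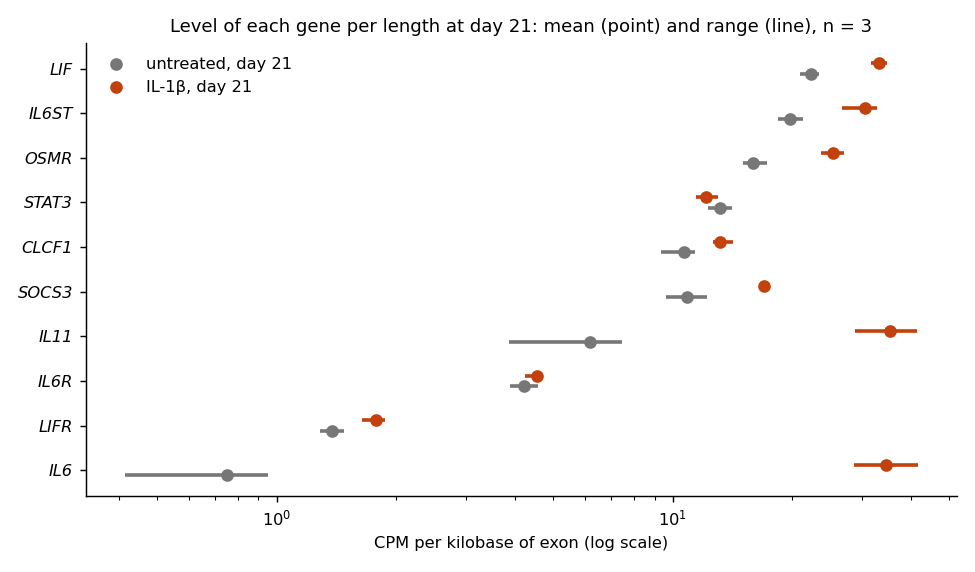
Mean level (point) and range (line) of each gene at day 21 in CPM per kilobase of exon on a log axis, n = 3 libraries per group, untreated cells in grey and IL-1β cells in red. IL6 moves from 0.749 to 34.6 and IL11 from 6.20 to 35.4, whereas IL6R and STAT3 have overlapping ranges.

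IL6 (ENSG00000136244, GRCh37 chromosome 7 from 22765503 to 22771621, plus strand) encodes interleukin-6, an inflammatory cytokine and inducer of the acute phase response. At day 6 its 3 untreated libraries had 2.16, 3.57 and 1.30 CPM and its IL-1β libraries 136, 129 and 78.8 CPM. At day 15 the values were 3.19, 3.03 and 3.91 against 136, 135 and 280 CPM, and at day 21 they were 3.82, 4.10 and 1.79 against 124, 145 and 180 CPM. Every IL-1β library stood far above every untreated one, with 1617 to 4380 counts on the gene against 22 to 79. IL6 thus had a log2 fold change of 5.64 (SE 0.53) at day 6, 5.76 (SE 0.50) at day 15 and 5.55 (SE 0.50) at day 21, with adjusted p of 2.28e-07, 9.78e-08 and 1.53e-07. At 46.7-fold at day 21, this was 150 ± 28 CPM against 3.24 ± 1.3 CPM (SD, n = 3). In RNA from whole cultures, more cells expressing IL6 and more IL6 RNA per cell cannot be told apart.

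Following IL-1β withdrawal IL6 was called higher than in the untreated control cells at all 3 times, with smaller log2 fold changes than during exposure. At day 6 after withdrawal the untreated libraries had 5.03, 6.05 and 2.40 CPM and the withdrawn ones 33.4, 47.1 and 27.2 CPM. At day 15 they had 6.43, 7.85 and 3.15 against 36.2, 41.7 and 20.5 CPM. At day 30 they had 2.80, 5.02 and 0.492 against 20.7, 23.0 and 7.11 CPM. The groups did not overlap at any of these times, and in each of them replicate 3 was the lowest library of both groups. The log2 fold change was 3.03 (SE 0.51, adjusted p = 0.00087), 2.49 (SE 0.50, adjusted p = 0.00949) and 2.74 (SE 0.53, adjusted p = 0.00759). These values were 52.7%, 43.2% and 47.6% of the peak log2 fold change at day 15. On the linear scale IL6 was 54.1-fold higher at that peak and 8.18-fold, 5.62-fold and 6.68-fold higher at the 3 times after withdrawal. Among all genes tested, 27 (0.141%) were called higher at all 6 time points, and IL6 was the only one of the 10 genes to be so. The calls following withdrawal rest on the shared estimate of spread. In separate fits of the 6 libraries of each time point the adjusted p was 0.0968, 0.137 and 0.691, and without the replicate 1 libraries 0.243, 0.609 and 0.656. Without the replicate 2 libraries the call held at day 6 and was lost at days 15 and 30 (adjusted p = 0.157 and 0.103), and with libraries of high mitochondrial share left out the values were 3.67, 2.14 and 3.08, with the call lost at day 15 (adjusted p = 0.217). The last fit leaves a single untreated library at days 6 and 15 after withdrawal, assumed to vary like the others. Over all alternatives the adjusted p ran from 1.45e-06 to 0.243, from 3.81e-05 to 0.609 and from 7.76e-05 to 0.691 at the 3 times, and the direction was kept. Exons of IL6-AS1 and STEAP1B on the other strand cover 9.91% of the IL6 exons. Libraries were made with a stranded kit, but the strand setting of the counting was not given in the sources used here, so reads of the overlapping strands may not be separated.

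IL11 (ENSG00000095752, chromosome 19 from 55875750 to 55881831, minus strand) encodes interleukin-11, a family member known for its roles in bone, stroma and fibrosis. At day 6 the untreated libraries had 19.2, 12.6 and 21.1 CPM and the IL-1β libraries 135, 124 and 144 CPM. At day 15 they had 31.1, 32.4 and 18.6 against 141, 144 and 42.1 CPM, and at day 21 20.0, 19.4 and 10.4 against 111, 96.5 and 77.2 CPM. The groups did not overlap, and replicate 3 at day 15, a library of high mitochondrial share, was the lowest of the exposed libraries. For IL11 the log2 fold change was 2.93, 2.00 and 2.52 (SE 0.42 each), with adjusted p of 7.01e-05, 0.00304 and 0.000283. The call at day 15 was lost in a separate fit of its 6 libraries (adjusted p = 0.0802) and without the replicate 1 libraries (adjusted p = 0.166), and over all alternatives its adjusted p ran from 8.60e-06 to 0.166.

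After withdrawal IL11 was called higher at day 6 alone. At day 6 the untreated libraries had 9.93, 9.07 and 19.6 CPM and the withdrawn ones 63.0, 26.2 and 44.1 CPM, with no overlap and a log2 fold change of 1.77 (SE 0.43, adjusted p = 0.0196). At day 15 they had 23.4, 10.9 and 15.6 against 43.0, 21.5 and 52.7 CPM, and at day 30 25.7, 13.8 and 16.2 against 43.9, 38.8 and 18.9 CPM. Both later groups overlapped their controls by a single withdrawn library, replicate 2 at day 15 and replicate 3 at day 30. At those times it had a log2 fold change of 1.22 (SE 0.43, adjusted p = 0.238) and 0.86 (SE 0.43, adjusted p = 0.613), so the response at days 15 and 30 was not called. These 3 values were 60.6%, 41.8% and 29.3% of the peak log2 fold change at day 6 of exposure. On the linear scale IL11 was 7.61-fold higher at that peak and 3.42-fold, 2.34-fold and 1.81-fold higher after withdrawal. The call at day 6 after withdrawal was lost with total counts only (1.84, adjusted p = 0.0614), without the libraries of high mitochondrial share (1.47, adjusted p = 0.0755), in the separate fit (1.78, adjusted p = 0.244) and without the replicate 1 (1.29, adjusted p = 1.000) or replicate 2 libraries (1.81, adjusted p = 0.122). Over all alternatives the adjusted p at that time ran from 0.00185 to 1.000.

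**Figure D3:**
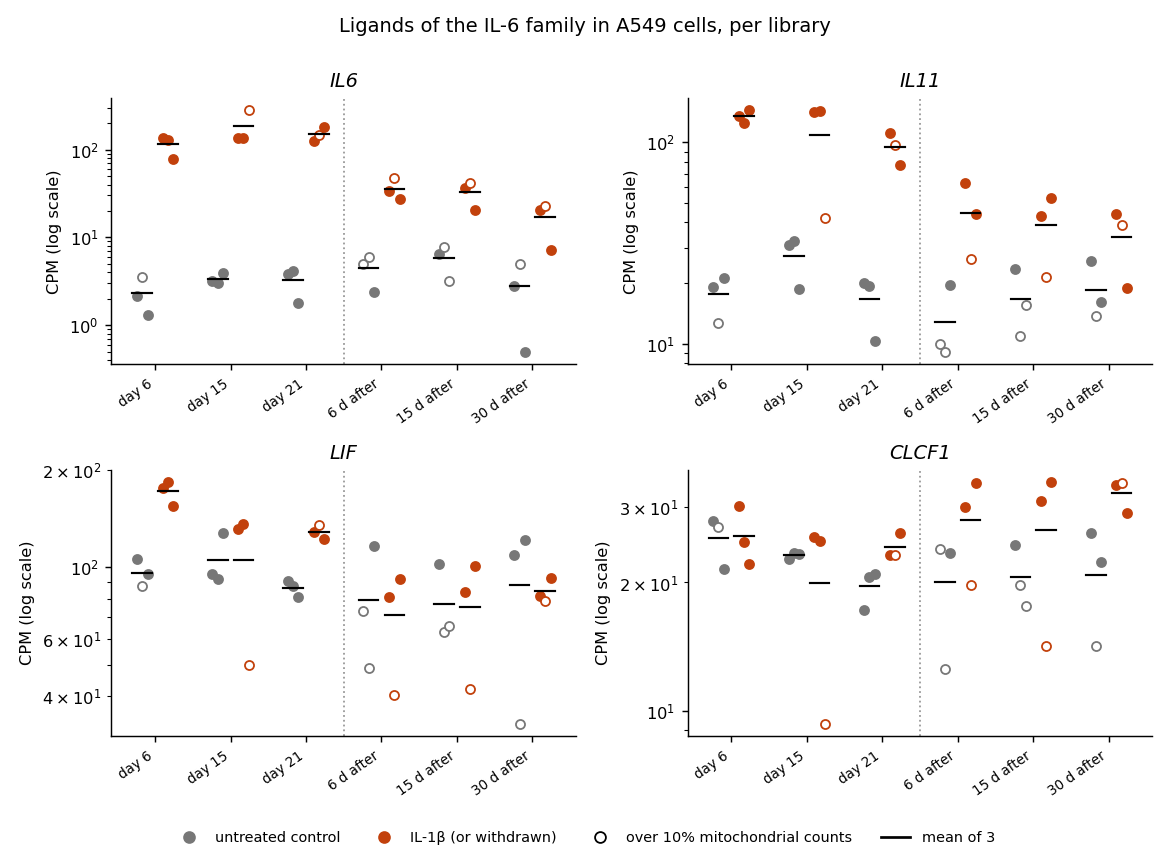
CPM of the ligands IL6, IL11, LIF and CLCF1 in each of the 36 libraries on log axes, by time point, with the untreated control in grey, the IL-1β or withdrawn group in red and the mean of 3 as a bar. Open points are libraries with over 10% mitochondrial counts. The IL6 groups never overlap, whereas LIF and CLCF1 groups overlap at most time points.

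LIF (ENSG00000128342, chromosome 22 from 30636442 to 30642748, minus strand), named for its action on leukemia cells, was already high in untreated cells. At day 6 its libraries had 106, 87.5 and 95.4 CPM untreated and 176, 184 and 155 CPM with IL-1β. At day 21 they had 90.5, 87.8 and 81.2 against 128, 135 and 123 CPM. The exposed libraries lay above the untreated ones at both times, but the log2 fold change of 0.83 (SE 0.38, adjusted p = 0.362) and 0.57 (SE 0.38, adjusted p = 0.669) did not pass the test. At day 15 the values were 95.6, 91.7 and 128 against 131, 136 and 50.0 CPM, where replicate 3, of high mitochondrial share, was the lowest of the 6 libraries. Following withdrawal the groups overlapped at all 3 times and the log2 fold change was -0.16, -0.03 and -0.06. The 95% interval at day 30 after withdrawal ran from -0.85 to 0.72. Without the libraries of high mitochondrial share LIF was 0.79 (adjusted p = 0.000324) and 0.55 (adjusted p = 0.00482) at days 6 and 21, past the adjusted p with folds under 2, while over all alternatives the adjusted p at both times ran up to 1.000.

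CLCF1 (ENSG00000175505, chromosome 11 from 67131639 to 67141648, minus strand) encodes cardiotrophin-like cytokine factor 1. Over all libraries it ranged from 9.31 to 34.4 CPM. The log2 fold change was 0.01, -0.20 and 0.30 during exposure and 0.49, 0.37 and 0.63 following withdrawal (SE 0.31 each), and none was called. At day 30 after withdrawal the untreated libraries had 26.1, 14.2 and 22.3 CPM and the withdrawn ones 33.9, 34.3 and 29.2 CPM, without overlap (adjusted p = 0.595). A gene on the same strand, ENSG00000256514, covers 3.32% of its exons.

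OSMR (ENSG00000145623, chromosome 5 from 38845960 to 38945698, plus strand) encodes the chain that joins gp130 in the oncostatin M receptor. At day 6 the untreated libraries had 122, 125 and 96.1 CPM and the IL-1β libraries 228, 237 and 224 CPM. At day 15 they had 109, 108 and 120 against 203, 187 and 269 CPM, and at day 21 124, 112 and 108 against 194, 181 and 170 CPM. The groups were far apart at all 3 times, and the highest library was replicate 3 of day 15, of high mitochondrial share. OSMR had a log2 fold change of 1.01 (SE 0.14, adjusted p = 1.43e-05) at day 6, 0.97 (SE 0.14, adjusted p = 1.89e-05) at day 15 and 0.67 (SE 0.14, adjusted p = 0.00184) at day 21. Only the first was called, since the other folds of 1.96 and 1.59 were under 2. The side of the fold threshold depended on the setting. Without the replicate 3 libraries the day 6 value was 0.94, and with the size factors of DESeq2 the day 15 value was 1.00 and past both thresholds. With the libraries of high mitochondrial share left out the day 15 value was 0.80.

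Following withdrawal OSMR was not called, with 133, 160 and 136 CPM against 115, 141 and 104 CPM at day 6. At day 15 the withdrawn libraries had 157, 178 and 132 CPM against 130, 130 and 118 CPM, and at day 30 they had 146, 152 and 148 CPM against 110, 134 and 109 CPM. The groups overlapped at day 6 and did not at days 15 and 30. OSMR then had a log2 fold change of 0.25, 0.31 and 0.34 (SE 0.14 each), with adjusted p of 0.651, 0.504 and 0.419. Its ligand oncostatin M (OSM) had at most 2 counts in any library and was not tested.

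IL6ST (ENSG00000134352, chromosome 5 from 55230923 to 55290850, minus strand) encodes gp130. With IL-1β its libraries had 329, 404 and 362 CPM at day 6 against 284, 313 and 253 CPM, and 392, 361 and 716 CPM at day 15 against 258, 249 and 257 CPM. At day 21 they had 395, 387 and 323 CPM against 257, 236 and 222 CPM. No groups overlapped during exposure, and the highest library was replicate 3 of day 15, of high mitochondrial share. IL6ST had a log2 fold change of 0.37 (adjusted p = 0.683), 0.94 (adjusted p = 0.0118) and 0.63 (adjusted p = 0.144), with an SE of 0.24 each. The day 15 value passed the adjusted p with a fold of 1.92, and over all alternatives its adjusted p ran from 0.000785 to 0.582. Following withdrawal it was 0.63, 0.35 and 0.05 with overlapping groups. In all 9 groups that held both kinds of library, the mean CPM of IL6ST was higher in those of high mitochondrial share.

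LIFR (ENSG00000113594, chromosome 5 from 38474770 to 38608456, minus strand), the receptor chain for LIF, and IL6R (ENSG00000160712, chromosome 1 from 154377669 to 154441926, plus strand), the receptor chain for IL-6, were not called at any time point. LIFR had a log2 fold change of 0.04, 0.42 and 0.37 during exposure and 0.54, 0.65 and 0.36 following withdrawal (SE 0.18 each). The lowest adjusted p was 0.0614, at day 15 after withdrawal, where the libraries had 25.9, 30.6 and 25.5 CPM against 20.2, 17.5 and 14.4 CPM. LIFR groups did not overlap at 5 of the 6 time points, day 6 of exposure being the exception. IL6R had 0.32, 0.16 and 0.11 during exposure and 0.11, 0.43 and 0.64 following withdrawal (SE 0.19 each). At day 30 after withdrawal its withdrawn libraries had 26.5, 26.9 and 32.1 CPM and the untreated ones 21.1, 12.6 and 20.8 CPM, with an adjusted p of 0.110. The 95% interval of the IL6R difference at day 21 ran from -0.28 to 0.50, so a change of 2-fold lies outside it.

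**Figure D4:**
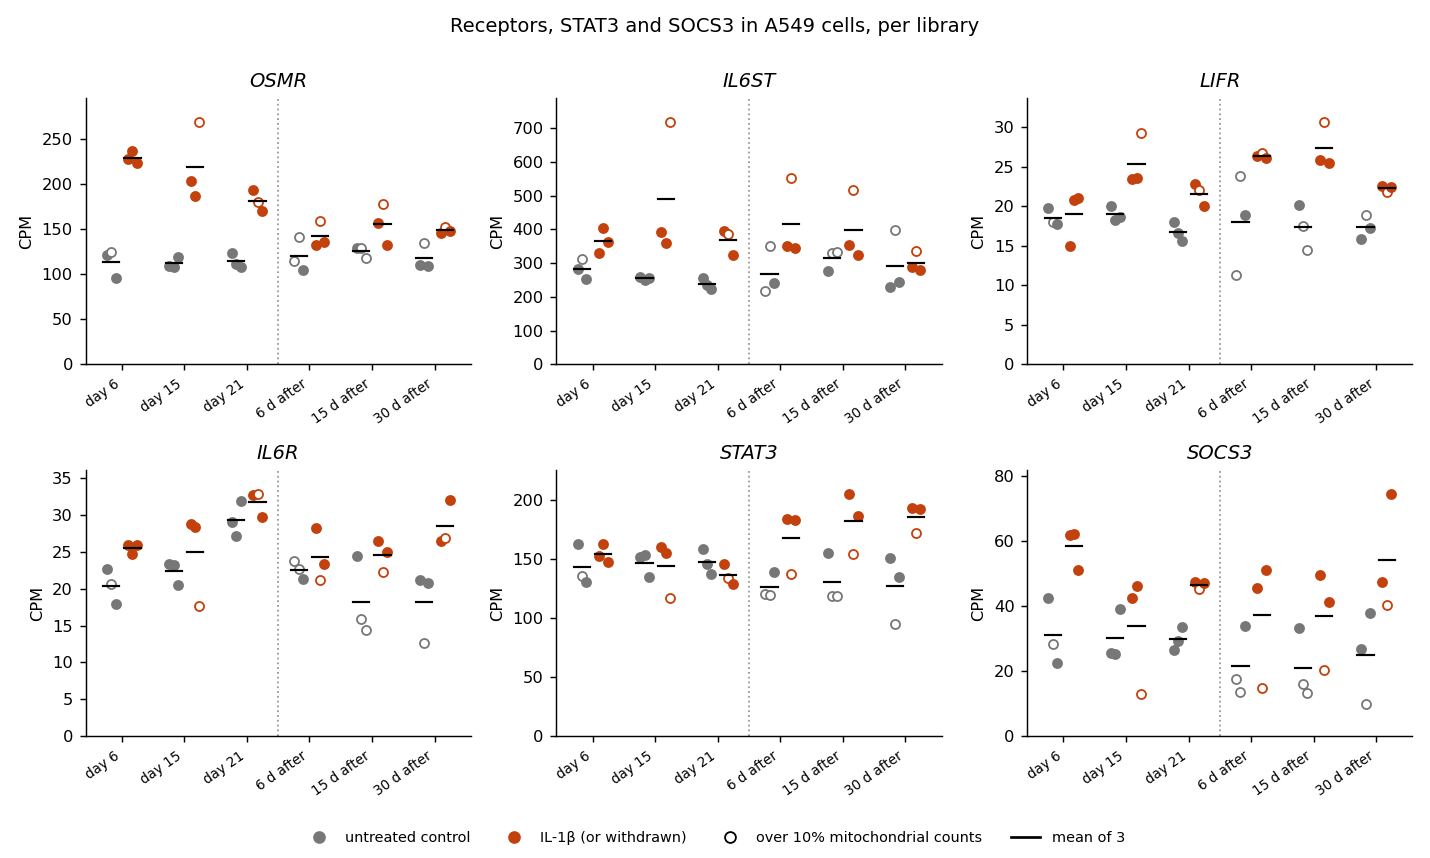
CPM of OSMR, IL6ST, LIFR, IL6R, STAT3 and SOCS3 in each of the 36 libraries on linear axes from 0, with the untreated control in grey, the IL-1β or withdrawn group in red and the mean of 3 as a bar. Open points are libraries with over 10% mitochondrial counts. In all 9 groups that held both kinds, their mean was lower for SOCS3 and higher for IL6ST.

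STAT3 (ENSG00000168610, chromosome 17 from 40465342 to 40540558, minus strand) was expressed at 95.2 to 205 CPM over all libraries. At day 21 the IL-1β libraries had 146, 134 and 129 CPM and the untreated ones 158, 146 and 138 CPM. The log2 fold change during exposure was 0.11, -0.03 and -0.11 (SE 0.16 each), with overlapping groups. Following withdrawal it was 0.41, 0.48 and 0.55, with adjusted p of 0.249, 0.177 and 0.0904. At day 30 after withdrawal the libraries had 193, 172 and 193 CPM against 151, 95.2 and 135 CPM, without overlap. The mean CPM of STAT3 was lower in the libraries of high mitochondrial share in all 9 groups that held both kinds. Without these libraries the value at day 30 after withdrawal was 0.44 (adjusted p = 0.0640). With the high share as a covariate it was 0.57 (adjusted p = 0.00165), past the adjusted p with a fold under 2, and over all alternatives the adjusted p ran from 0.000384 to 0.941.

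SOCS3 (ENSG00000184557, chromosome 17 from 76352859 to 76356158, minus strand) is the feedback inhibitor of gp130 signalling. At day 6 it had 42.4, 28.3 and 22.3 CPM untreated and 61.7, 62.0 and 51.1 CPM with IL-1β. At day 21 it had 26.4, 29.3 and 33.4 against 47.4, 45.1 and 46.9 CPM, and at day 30 after withdrawal 26.7, 9.91 and 37.7 against 47.4, 40.4 and 74.4 CPM. The groups did not overlap at these 3 times and did at the other three. The log2 fold change was 0.91, 0.18 and 0.65 during exposure and 0.77, 0.83 and 1.11 following withdrawal (SE 0.47 each). The adjusted p lay between 0.459 and 0.862. SOCS3 had a wide spread between libraries. Its mean CPM was lower in those of high mitochondrial share in all 9 groups that held both kinds, by a median of 1.16 on the log2 scale. With the high mitochondrial share as a covariate, the log2 fold change was 1.03 (adjusted p = 0.0182) at day 21 and 1.23 (adjusted p = 0.0130) at day 30 after withdrawal, past both thresholds. It was past neither threshold without those libraries at the same times (0.68 and 0.93, adjusted p = 0.0576 and 0.0887). Over all alternatives the adjusted p ran from 0.00254 to 1.000 at day 21 and from 0.0130 to 1.000 at day 30 after withdrawal.

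Within a group, libraries of high and low mitochondrial share differed in several of the 10 genes, and the part this had in the responses was not tested beyond the fits with these libraries adjusted for or left out. Libraries of high and low share were compared by mean CPM across the 9 groups that held both. LIF was lower in those of high share in 8, IL11 and CLCF1 in 7, and IL6R in 6. IL6 and OSMR were higher in 7 of the 9 and LIFR in 5. The median log2 ratio was 0.73 for IL6, -0.82 for IL11 and -0.93 for LIF. Without these libraries the log2 fold change of IL6 was 6.08, 5.32 and 5.62 at days 6, 15 and 21 and 3.67, 2.14 and 3.08 following withdrawal. That of IL11 was 2.76, 2.38 and 2.53 and then 1.47, 1.04 and 0.58. Days 6, 15 and 21 of exposure each held a single library of high share, and 8 of the 11 were from after withdrawal. At days 6 and 15 after withdrawal, 2 untreated libraries and 1 withdrawn library were of high share. At day 30 after withdrawal it was 1 in each group. The count of called genes without them was 3, 2 and 2 of 10 during exposure and 1, 0 and 1 of 10 following withdrawal. In the same fits 693, 1000 and 1008 and then 438, 27 and 145 of all genes were called, where the fit of all libraries called 531, 814 and 817 and then 346, 183 and 172.

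**Figure D5:**
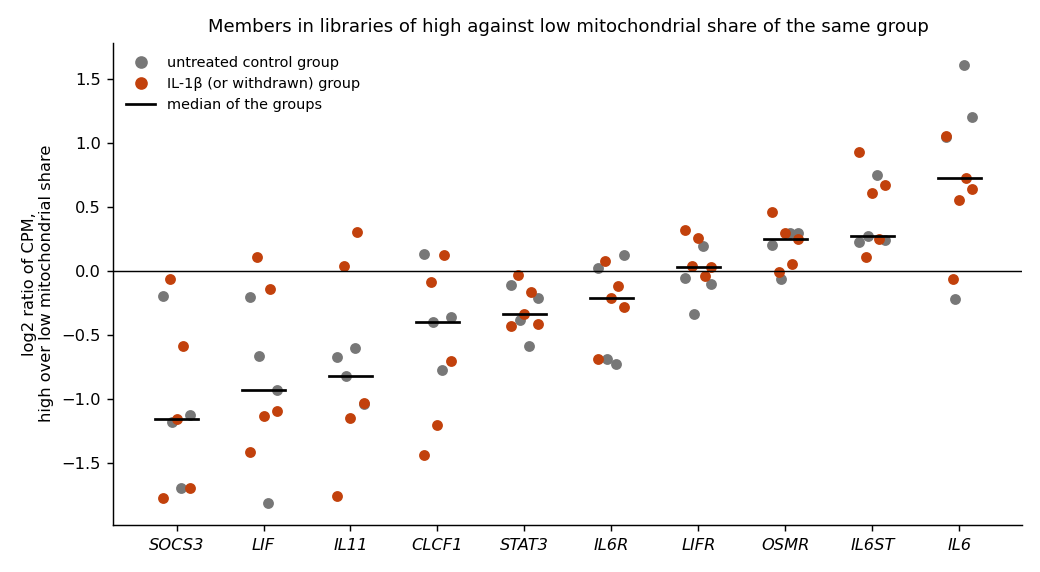
Log2 ratio of mean CPM in libraries of high over low mitochondrial share within the same group, for each gene and each of the 9 groups that held both kinds, with the median as a bar. All 9 ratios lie below 0 for SOCS3 and STAT3 and above 0 for IL6ST, with a median of 0.73 for IL6.

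Whether a response differed between time points was tested by the difference of the 2 log2 fold changes in the same fit. None of the 10 genes was called in the 4 differences, which set day 21 against day 6 of exposure, day 6 after withdrawal against day 21, day 30 after withdrawal against day 21, and the last against the first withdrawal time. The background of these tests was low, with 0.0104%, 0.136%, 0.626% and 0.00521% of all genes called, and at an unadjusted p under 0.05 there were 0, 3, 3 and 0 of the 10 genes by edgeR's quasi-likelihood test. For IL6 the difference of the log2 fold changes, day 30 after withdrawal minus day 21, was -2.81 (SE 0.73, adjusted p = 0.0916), and with day 6 after withdrawal in its place -2.51 (SE 0.72, adjusted p = 0.443). The former was called in 7 alternatives. These were no filter on low counts (adjusted p = 0.0434), DESeq2's Wald test (-2.92, adjusted p = 0.0108), the likelihood ratio test (adjusted p = 0.0158), the replicate block (-2.91, adjusted p = 0.0203), the mitochondrial covariate alone (-2.61, adjusted p = 0.0225) or with the block (adjusted p = 0.0077), and the replicate 3 libraries left out (-2.57, adjusted p = 0.00260). The latter was called in the last of these too (-2.23, adjusted p = 0.0144). Over all alternatives the adjusted p ran from 0.00260 to 0.972 for the former and from 0.0144 to 1.000 for the latter. For IL11 the response differed by -1.66 between day 21 and day 30 after withdrawal (SE 0.60, adjusted p = 0.402). This was called with the mitochondrial covariate (-1.83, adjusted p = 0.0376), with the block too (-1.92, adjusted p = 0.0123) and without the libraries of high share (-1.95, adjusted p = 0.0379). For STAT3 it differed by 0.66 (SE 0.22, adjusted p = 0.300). In untreated cells 0 of the 10 genes were called between the day 6 and the last groups, where 0.0104% of all genes were. There the log2 difference of the 10 genes lay between -0.31 and 0.14, and 0 of 10 had an unadjusted p under 0.05 by edgeR's quasi-likelihood test.

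Beyond these genes, 62 further genes of the pathway were listed by role, and 51 of them were tested. Of the 51, 6 rose and 3 fell at day 6 of exposure, 4 and 4 at day 15, and 5 and 5 at day 21. Following withdrawal 2 rose and 3 fell at day 6, 1 and 2 at day 15, and 0 and 2 at day 30. Over all genes, decreases were called in 1.25%, 2.30% and 2.06% during exposure and in 0.725%, 0.360% and 0.464% following withdrawal, and the share of increases is given above. The median log2 fold change of the 51 stayed between -0.10 and 0.15. Among the 7 further ligands, the cytokine subunit EBI3 rose at day 6 (2.13 to 2.48 CPM untreated, 7.40 to 14.1 CPM with IL-1β, log2 fold change 2.29, SE 0.48, adjusted p = 0.00349) and was called at no other time. Without the replicate 1 libraries this call was lost (2.18, adjusted p = 0.289). CTF1 and OSM had at most 3 and 2 counts in any library.

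Among the 6 further receptor genes, IL31RA, a gp130-like chain that joins OSMR in the receptor for IL-31, rose at 5 of the 6 time points. Its untreated libraries had 3.11 to 5.41 CPM at day 21 and the IL-1β libraries 14.3 to 16.0 CPM, without overlap. The log2 fold change was 1.89, 1.98 and 1.85 during exposure and 1.77, 1.44 and 1.07 following withdrawal, the last with an adjusted p of 0.0753. Without the replicate 1 libraries the IL31RA calls at day 6 of exposure and at days 6 and 15 after withdrawal were lost (adjusted p = 0.0521, 0.154 and 0.450). The last 2 were also lost in separate fits (adjusted p = 0.131 and 0.328), and that at day 15 after withdrawal without the replicate 2 libraries (adjusted p = 0.202) or those of high mitochondrial share (adjusted p = 0.331). IL31 itself had 0 counts in every library. The receptor chain IL11RA had a log2 fold change of -0.04 (SE 0.37, adjusted p = 1.000) at day 21, and CNTFR had at most 2 counts.

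Of the 13 further signalling genes STAT4 alone was called, lower at day 21 with a log2 fold change of -1.005 (SE 0.30, adjusted p = 0.0410). The STAT4 call was lost in 7 of 15 alternatives, among them without the replicate 1 (-0.96, adjusted p = 0.547) or replicate 2 libraries (-0.84, adjusted p = 0.327). In each of the 7 its fold was under 2. At day 21 the kinases JAK1, JAK2 and TYK2 had log2 fold changes of 0.36, 0.40 and 0.08, and none was called. JAK1 passed the adjusted p at day 15 (0.69, SE 0.16, adjusted p = 0.00644) with a fold under 2. Of the 10 feedback genes tested, SOCS1 among them (0.55 at day 21, SE 0.55, adjusted p = 0.915), 0 were called at any time point.

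Genes known to respond to STAT3 or to IL-6 moved in both directions. The exposed cells were also under IL-1β itself, and the part of each in these moves was not tested. Of the 20 tested, SAA1 and SAA2, which encode the acute phase protein serum amyloid A, rose during exposure, with SAA1 at 0.0603 to 0.228 CPM untreated and 3.74 to 9.40 CPM with IL-1β at day 21 (log2 fold change 5.41, SE 0.76, adjusted p = 1.78e-06). At day 6 its untreated libraries held 3 or fewer counts each and it was at least 64.7-fold higher. SAA1 was also called higher at day 6 after withdrawal, near the floor. There its untreated libraries held 0 counts and the withdrawn ones a mean of 0.548 CPM, at least 2.12-fold higher. That call was lost without any 1 of the replicates (adjusted p = 0.0549 to 0.399). The sequences of SAA1 and SAA2 are nearly identical, so their separate values are uncertain. LCN2, an iron-binding acute phase protein, rose to 16.3 to 39.1 CPM at day 6 from 1.24 to 2.09 CPM (log2 fold change 4.16, SE 0.49, adjusted p = 3.40e-06) and was not called following withdrawal. IER3, an early response gene, rose at days 6 and 21 (1.42 and 1.01). Without the replicate 1 libraries both IER3 calls were lost (adjusted p = 0.240 and 0.628), and that at day 21 was lost in 5 of 15 alternatives in all, replicate 2 left out among them (0.88, adjusted p = 0.164).

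The fibrinogen genes FGA, FGB and FGG, classical acute phase targets of IL-6 in liver, fell. FGB had 9.12 to 10.4 CPM in untreated libraries at day 21 and 3 or fewer counts in each IL-1β library, at least 56.4-fold lower. FGB was lower at all 6 time points, and at day 30 after withdrawal its log2 fold change was -2.83 (SE 0.43, adjusted p = 0.000752). FGA was lower at all 6 as well, with -4.72 (SE 0.51, adjusted p = 2.59e-07) at day 21 and -1.78 (SE 0.40, adjusted p = 0.0233) at day 30 after withdrawal. The last FGA call was lost with total counts only (adjusted p = 0.0734), in separate fits (0.254), with libraries of high mitochondrial share left out (0.110) and without the replicate 1 or 2 libraries (0.520 and 0.486), and that of FGB in separate fits (0.297) and without the replicate 2 libraries (0.0790). At day 15 after withdrawal 4 alternatives lost the FGA call, replicates 1 and 2 left out among them (adjusted p = 0.266 and 0.0834). Separate fits lost the calls of both FGA and FGB at day 6 (adjusted p = 0.0968 each) and day 15 after withdrawal (0.0749 each). FGG was called lower up to day 6 after withdrawal, and at day 6 of exposure it was at least 13.8-fold lower. Its call at day 6 after withdrawal was lost without any 1 of the replicates (adjusted p = 0.0530 to 0.602), at days 6 and 21 without replicate 1 (0.0564 and 0.194) and at day 15 without replicate 3 (0.0838). PIM1, a kinase gene induced by STAT factors, fell at days 15 and 21 (-1.34 and -1.22, adjusted p = 0.0286 and 0.0498). Both PIM1 calls were lost with total counts only (adjusted p = 0.102 and 0.186) and without the replicate 1 (0.319 and 0.618) or replicate 3 libraries (0.301 and 0.134), and that at day 21 in 7 of 15 alternatives in all. At day 21 the tested targets thus held 4 increases and 4 decreases, with a median of 0.11, and these counts include the calls of IER3, PIM1 and FGG that alternatives lost.

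The genes whose pattern was most like that of each ligand were found by the root mean square difference of the log2 fold changes over the 6 time points, among 15004 genes with a mean of at least 1 CPM and a symbol. For IL6 they were CCL20, a chemokine gene (difference 0.784), C15orf48 (1.06) and BHLHE41 (1.07). CCL20 had a log2 fold change of 5.57 at day 21 and 2.34 at day 30 after withdrawal. For IL11 they were VDR, the vitamin D receptor gene (0.215), LAMB3, a laminin chain gene (0.237), and FOSL1, an AP-1 subunit gene (0.339). VDR had 2.16 at day 21 and 0.75 at day 30 after withdrawal. For LIF the nearest was SMIM29 (0.0947) and for CLCF1 B9D2 (0.0680), and both had small responses throughout. No gene came as close to IL6 as the nearest genes came to the other ligands. This difference was not scaled to the size of the responses, and those of IL6 were the largest among the ligands. It therefore does not compare how distinct the time patterns of the ligands were.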

How the data were processed

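RNA from 36 A549 libraries was sequenced by the authors as single-end reads, aligned to GRCh37 and counted per Ensembl gene. The submitters' processing notes name bcl2fastq 2.17, TopHat2 2.0.14, Bowtie2 2.2.5 and HTSeq 0.6.1. The deposited values are raw counts without normalization. The strand setting and the annotation release were not given in the sources used here. Each file lists 63677 genes, and its summary lines (8.48% to 18.6% of reads on no gene, 2.62% to 4.18% ambiguous) stayed out of library sizes. Groups came from the labels. No replicate pair was identical (0 of 36).

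From these counts, genes passing filterByExpr (19180 of 39471 with any count) were fitted with edgeR 4.0.16 in R 4.3.3 (TMM scaling, quasi-likelihood, 12 groups, 24 residual degrees of freedom). CPM used the same scaling. A gene with 3 or fewer counts in every library of a group was taken at the floor, and bounds from it cover counting error only. On simulated counts, 184 of 200 genes (92%) with a log2 fold of 2 at day 21 were recovered among 19180, with 8 false calls. The simulated spread followed its trend with expression level, without spread particular to a gene or to libraries of high mitochondrial share. Smaller folds were not simulated, so the 92% does not apply to them. Alternatives covered scaling, low count filters, DESeq2 1.42.0, the likelihood ratio test, separate fits, the replicate block, the mitochondrial share, the thresholds and each replicate left out. Symbols, positions and exon lengths came from GENCODE v44lift37 (55665 genes matched), and promoters from RefSeq, where the 50 bases after the start were not used.

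The 10 genes, the lists and the alternatives were chosen with earlier results of these data known. Named genes were all 10 members, every listed pathway gene called at any time point, the partners JAK1, JAK2, TYK2, SOCS1, OSM, IL11RA, CNTFR and CTF1, and the 3 genes most like each ligand. Some listed genes are not reported here.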

Additional observations from a re-analysis of the deposited data

How the results depend on the processing

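Over 60 responses (10 genes at 6 time points) and 15 alternatives, 844 of 900 values kept direction and call, 17 lost the call, 12 gained it and 27 changed sign. Most of the 844 were not called in either fit, and only a called response could lose its call. After withdrawal IL6 lost it in 2, 4 and 3 of the 15 alternatives and IL11 in 5 at day 6. During exposure IL11 lost it in 2 at day 15 and OSMR in 1 at day 6. The alternative by adjusted p alone used the main fit and could lose no call. IL6, IL11 and OSMR kept their direction throughout. The count of called genes at day 6 after withdrawal was 1 with total counts only (312 of all genes), 1 with the libraries of high mitochondrial share left out (438 of all genes) and 0 in separate fits. At day 15 after withdrawal it was 0 in both of the last, and at day 30 it was 0 in separate fits. In these separate fits, with 2, 4 and 4 of the 10 genes at an unadjusted p under 0.05, 1, 2 and 0 of all genes were called. At day 15 of exposure the count was 1 in separate fits and 4 by adjusted p alone. At day 30 after withdrawal it was 2 (IL6 and SOCS3) with the mitochondrial share as a covariate, with or without the replicate block. With a replicate left out, the counts at days 15 of exposure and 6, 15 and 30 after withdrawal ran over 2 to 4, 0 to 2, 0 to 1 and 0 to 1. Without replicate 1 the counts after withdrawal were 0 each, where 29, 15 and 6 of all genes were called, and without replicate 2 they were 1, 0 and 0, where 167, 24 and 25 were.

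The number of genes whose response differed between day 21 and day 30 after withdrawal was 1 with no filter, DESeq2, the likelihood ratio test or the replicate block (IL6 each time), 1 with the libraries of high mitochondrial share left out (IL11), and 2 with the covariate, also with the block (IL6 and IL11). With a replicate left out it was 0 to 1, as was the number between day 21 and day 6 after withdrawal. Libraries of the same replicate number shared only a replicate letter by the labels. Of 18 pairs, 14 correlated over 0.1 (-0.34 to 0.72, mean 0.28) and 16 libraries correlated best with their own number. After withdrawal, replicate 1 at day 6 (-0.11) and replicate 3 at day 15 (-0.34) did not. In both pairs only the untreated library was of high mitochondrial share, and the part of this share in the correlations was not tested. The block changed no count of these 10 genes at the 6 time points.

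The sign changes were in values near 0. LIF at day 15 was -0.029 with total counts only, -0.011 with at least 10 counts in every library and -0.29 to 0.52 with a replicate left out. At day 15 after withdrawal LIF was 0.15 with total counts only and -0.40 to 0.13 with a replicate left out. At day 30 after withdrawal it was 0.0098 with the replicate block, 0.087 with the covariate, 0.083 with both and -0.41 to 0.15 with a replicate left out. CLCF1 at day 6 was -0.17 with the covariate, -0.18 with the block too and -0.031 to 0.092 with a replicate left out, and at day 15 0.13 with the libraries of high mitochondrial share left out and -0.42 to 0.14 with a replicate left out. STAT3 at day 15 was 0.059 with the covariate, 0.065 with the block too, 0.11 without those libraries and -0.068 to 0.055 with a replicate left out. With a replicate left out, SOCS3 at day 15 ran from -0.20 to 0.80, LIFR at day 6 from -0.052 to 0.25, IL6ST at day 30 after withdrawal from -0.085 to 0.25, and at day 21 IL11RA from -0.15 to 0.12 and TYK2 from -0.011 to 0.13. At day 21 IL11RA was also 0.15 with the covariate, 0.18 with the block too and 0.093 without those libraries. The cause was not tested. Of the other pathway values, 552 of 614 kept direction and call and 57 lost the call. With total counts only, the median of all genes shifted to 0.21 at day 15 after withdrawal. The number of libraries, 3 per group, and low counts, 10 to 99 for IL6 in untreated libraries, limit the precision.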
